A study of Mus musculus with 3 samples.

Results

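Fos, Fosb, Jun, Junb, Egr1, Atf3, Ier2, Ier3, Myc and Nr4a1 were followed as a set of immediate early genes, listed by symbol, 10 of the 32285 genes counted in the files. Each is described by its level in 3 heart sections and by the share of capture spots in which it was detected at equal depth. Its level is also given in spots above and below a threshold of Ankrd1, a stress-responsive gene of cardiomyocytes. Visium libraries record the transcripts of the tissue lying on each barcoded spot of a slide, and a spot can cover several cells of different kinds. The files hold 1 section of each condition, so every difference below is between single sections. All mice were of the C57BL/6 strain and 8 weeks old when supplied, before acclimatization, gavage and operation. The sham mouse received the vehicle by gavage for 7 days and then an operation in which the needle was passed but no artery was tied. The I/R mouse received the same vehicle for 7 days, and its left anterior descending coronary artery (LAD) was tied for 30 min and reopened for 24 h. The SBP mouse received Shexiang Baoxin Pill, which the labels call MUSKARDIA, for 7 days before the same 30 min of ischemia and 24 h of reperfusion. Sections were cut from small pieces of heart, so how much injured muscle a section caught is part of what it shows.

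Immediate early genes are switched on within minutes of a growth signal, stress or injury without the need for new protein, mostly through factors that already wait at their promoters, such as SRF with its ternary complex partners and CREB. FOS, FOSB, JUN, JUNB and ATF3 are leucine zipper proteins that pair with each other in AP-1 and related dimers, EGR1 is a zinc finger factor, NR4A1 an orphan nuclear receptor, and MYC pairs with MAX. IER2 is a nuclear protein of the early response, while IER3 is a short-lived stress protein that is not a DNA-binding factor.

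The promoters of 7 of the 10 genes were matched in the RefSeq promoter table for GRCm38.p6, and those of Egr1, Ier2 and Myc were not. Those of 4 are printed as the 250 bases before the transcription start, in the strand of the gene: Fos, the gene with the largest differences between sections among those with enough UMIs, Junb, its AP-1 partner, Nr4a1, the richest in CRE core letters, and Ier3, which stayed high in the SBP section. They lie at chr12:85473640-85473889 on the plus strand for Fos, chr8:84978749-84978998 on the minus strand for Junb, chr15:101266596-101266845 on the plus strand for Nr4a1 and chr17:35821463-35821712 on the plus strand for Ier3. The RefSeq start is that of the gene model given below for Fos and differs from it for Junb, Nr4a1 and Ier3, those of Nr4a1 and Ier3 lying inside the gene. Capitals mark the CRE core (TGACG on either strand) and the TATA box (TATAAA).
Fos: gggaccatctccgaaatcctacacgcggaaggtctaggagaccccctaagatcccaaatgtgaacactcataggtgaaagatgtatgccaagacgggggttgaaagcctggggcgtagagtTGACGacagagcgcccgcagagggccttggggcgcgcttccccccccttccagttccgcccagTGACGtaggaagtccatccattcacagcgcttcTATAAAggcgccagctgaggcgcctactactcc
Junb: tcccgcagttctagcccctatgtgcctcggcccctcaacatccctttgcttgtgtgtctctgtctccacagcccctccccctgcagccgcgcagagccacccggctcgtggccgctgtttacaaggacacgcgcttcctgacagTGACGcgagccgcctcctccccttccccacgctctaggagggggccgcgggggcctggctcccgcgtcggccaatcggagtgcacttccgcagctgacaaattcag
Nr4a1: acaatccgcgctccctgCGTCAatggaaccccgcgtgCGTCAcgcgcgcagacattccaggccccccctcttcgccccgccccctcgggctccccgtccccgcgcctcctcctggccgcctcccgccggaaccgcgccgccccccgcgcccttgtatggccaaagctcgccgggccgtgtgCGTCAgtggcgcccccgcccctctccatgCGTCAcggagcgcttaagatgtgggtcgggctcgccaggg
Ier3: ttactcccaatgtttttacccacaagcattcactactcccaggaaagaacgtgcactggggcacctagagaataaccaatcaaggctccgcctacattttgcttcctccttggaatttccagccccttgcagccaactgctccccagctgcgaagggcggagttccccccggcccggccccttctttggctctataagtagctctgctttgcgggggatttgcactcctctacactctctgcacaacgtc

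The CRE core was present in 5 of the 7 matched promoters (Fos, Fosb, Junb, Atf3 and Nr4a1) and in 17.8% of all 32851 promoter windows of the same length. Fos held 2 copies, the nearer at 66 to 62 bases before the start, with its TATA box at 33 to 28 bases, and Nr4a1 held 4 copies. Jun and Ier3 held none. The GC box (GGGCGG on either strand) was in 6 of the 7 and in 32.7% of all windows, and it was present in Jun and Ier3. Neither the full CRE (TGACGTCA, in 1.55% of all windows), the AP-1 site (TGANTCA, 6.75%), the E-box (CACGTG, 6.02%) nor the CArG box (1.47%) was found within these 250 bases of any of the 7, which says nothing of sequence farther out. Every full CRE also holds the CRE core. Such matches describe letters and are not evidence that a factor was bound.

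The kept spots numbered 2234 in sham, 2082 after I/R and 1960 under SBP, with 25118258, 30238530 and 21631280 UMIs (counts of unique molecules), and mitochondrial genes took 44.3% to 48.6% of them. Levels are UMIs of a gene per 1000000 UMIs of the whole section (CPM). Cardiomyocyte markers were abundant in every section, at 15946 to 20241 CPM summed over 6 genes. The 4 neutrophil markers differed the most between sections of the lists with over 2 CPM, and summed to 27.2 CPM in sham, 236 after I/R and 115 under SBP, and 10 injury region genes (such as Timp1, Spp1 and Tnc) to 454, 1765 and 806. Of the other lists, macrophage markers were at 323, 426 and 320 CPM in the same order, endothelial at 323, 354 and 335, fibroblast at 1503, 1134 and 1444, pericyte at 407, 306 and 366, smooth muscle at 317, 237 and 124, atrial at 461, 1149 and 1384 and red cell at 2878, 4094 and 3848. T and B cell markers stayed below 2 CPM, and 1 of the 4 atrial markers in I/R and in SBP and 1 of the 3 B cell markers in SBP were at 0. A lower CPM can come from fewer cells of a kind or from less RNA in each, and these data cannot tell the 2 apart.

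All 10 genes had their highest level in the I/R section. A gene was counted as past the fold when its CPM differed by at least 1.5-fold and the 95% interval of its log2 ratio left out 0. Genes needed 50 UMIs or more over both sections, which 9 of the 10 had. Fosb, with 4 sham, 38 I/R and 7 SBP UMIs, fell short. In I/R over sham all 9 were past the fold and higher, where 22.7% of all genes tested were higher and 3.25% lower. Their median log2 ratio was 1.12, against 0.24 for all 12231 genes. In SBP over I/R, 7 of the 9 were past the fold and lower, against 13.1% of all genes lower and 1.69% higher, with a median of -1.04 for the 9 and -0.17 for all genes. Jun and Ier3 were the 2 that were not. In SBP over sham, 2 of the 9 (Ier3 and Myc) were past the fold and higher, against 4.85% of all genes, and none was lower, against 2.39%. The I/R section enters the first and the second comparison, so a high value there moves both. The members were chosen with earlier results of these data known, so their counts are not an independent contrast with all genes. The intervals cover counting error only and say nothing of the spread between mice.

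**Figure D1:**
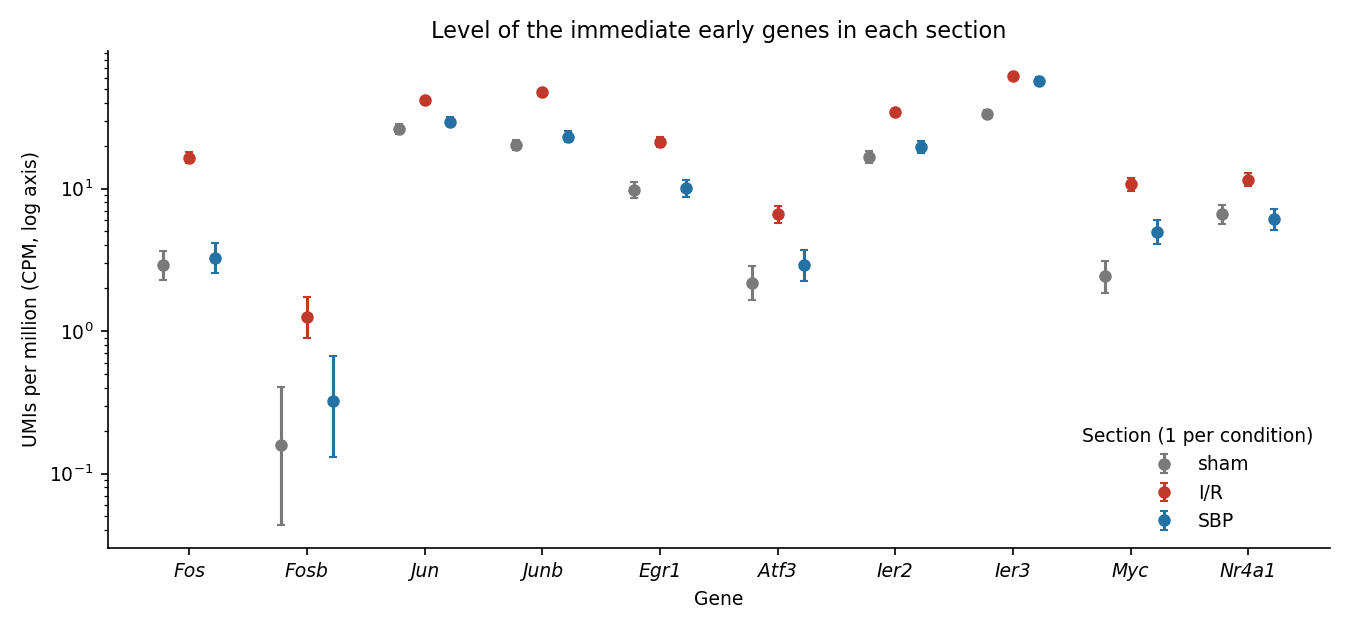
Level of each immediate early gene in the sham, I/R and SBP sections, in CPM on a log axis, with exact Poisson 95% intervals of counting error. The I/R point is the highest for every gene, and for Ier3 the SBP point (57.1) lies close to it (61.5).

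Fos (ENSMUSG00000021250, chromosome 12, 85473890 to 85477273, plus strand, GRCm38), the partner that JUN proteins need for the most active AP-1 dimer, was counted with 73 UMIs in sham, 497 after I/R and 71 under SBP. These are 2.91 CPM in sham (95% interval 2.28 to 3.65), 16.4 after I/R (15.0 to 17.9) and 3.28 under SBP (2.56 to 4.14). The I/R section stood alone and the intervals of sham and SBP overlapped. The log2 ratio was 2.50 for I/R over sham (2.14 to 2.87), which placed Fos 81st from the top of 12231 genes, while SBP over I/R stood at -2.32 (-2.70 to -1.96). Between SBP and sham Fos was at 0.18 (-0.32 to 0.67), an interval across 0. Fosb (ENSMUSG00000003545, chromosome 7, 19302696 to 19310051, minus strand) encodes a close relative of FOS and lay at 0.16 CPM in sham, 1.26 after I/R and 0.32 under SBP. Its log2 ratio of I/R over sham was 2.98, with a wide interval from so few UMIs (1.51 to 4.93), and that of SBP over I/R was -1.96 (-3.37 to -0.78).

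Junb (ENSMUSG00000052837, chromosome 8, 84974484 to 84978718, minus strand) was at 20.2 CPM in sham (18.5 to 22.1), 47.3 after I/R (44.9 to 49.8) and 23.1 under SBP (21.1 to 25.2), with log2 ratios of 1.23 (1.08 to 1.37) and -1.04 (-1.19 to -0.89). Jun (ENSMUSG00000052684, chromosome 4, 95049034 to 95052222, minus strand) was at 26.2 CPM in sham (24.3 to 28.3), 41.7 after I/R (39.4 to 44.0) and 29.5 under SBP (27.3 to 31.9). Jun had the smallest ratio of I/R over sham of the 9, at 0.67 (0.53 to 0.81). Its ratio of SBP over I/R, -0.50 (-0.64 to -0.36), was short of the 1.5-fold. Prdx2 overlaps Junb and Junos overlaps Jun on the opposite strand, and since the sources used here do not say whether counting used strand, their reads may not be told apart. Atf3 (ENSMUSG00000026628, chromosome 1, 191170296 to 191218039, minus strand), a stress-induced repressor, was scarce, with 55 UMIs in sham, 199 after I/R and 63 under SBP. Its level was 2.19 CPM (1.65 to 2.85), 6.58 (5.70 to 7.56) and 2.91 (2.24 to 3.73) in that order, giving log2 ratios of 1.59 (1.15 to 2.05) and -1.18 (-1.61 to -0.76). Between SBP and sham, Atf3 was at 0.41 with an interval that includes 0 (-0.13 to 0.96).

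Egr1 (ENSMUSG00000038418, chromosome 18, 34859823 to 34864984, plus strand), an inducer of growth factor and matrix genes, had 9.79 CPM in sham (8.61 to 11.1), 21.3 after I/R (19.7 to 23.0) and 10.0 under SBP (8.74 to 11.5). The log2 ratio of I/R over sham was 1.12 (0.91 to 1.34) and that of SBP over I/R -1.09 (-1.32 to -0.86). Between SBP and sham it was 0.03 (-0.24 to 0.30). Nr4a1 (ENSMUSG00000023034, chromosome 15, 101254269 to 101274795, plus strand) had 6.61 CPM in sham (5.64 to 7.69), 11.6 after I/R (10.4 to 12.9) and 6.10 under SBP (5.11 to 7.24). Its log2 ratios were 0.81 (0.54 to 1.08) and -0.92 (-1.22 to -0.63), and SBP over sham was -0.12 (-0.46 to 0.22). In both genes the sham and SBP intervals overlapped.

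Ier2 (ENSMUSG00000053560, chromosome 8, 84661331 to 84662852, minus strand) was at 16.6 CPM in sham (15.0 to 18.3), 34.2 after I/R (32.2 to 36.4) and 19.6 under SBP (17.8 to 21.6), with log2 ratios of 1.04 (0.88 to 1.21) and -0.80 (-0.97 to -0.64). Ier3 (ENSMUSG00000003541, chromosome 17, 35821684 to 35822923, plus strand) followed another course. It was at 33.3 CPM in sham (31.1 to 35.7), 61.5 after I/R (58.7 to 64.4) and 57.1 under SBP (54.0 to 60.4). The log2 ratio of I/R over sham was 0.88 (0.77 to 1.004), but that of SBP over I/R only -0.11 (-0.21 to -0.003), which is above the median of all genes. Measured as a part of the I/R minus sham difference, the I/R minus SBP difference was 15.7% for Ier3, while for the other 9 genes this share ran from 69.6% (Myc) to 110.2% (Nr4a1).

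Myc (ENSMUSG00000022346, chromosome 15, 61985391 to 61990374, plus strand) had 61 UMIs in sham, 324 after I/R and 107 under SBP. Its level was 2.43 CPM in sham (1.86 to 3.12), 10.7 after I/R (9.58 to 11.9) and 4.95 under SBP (4.05 to 5.98), so that SBP lay between the other sections with no overlap of intervals. The log2 ratio of I/R over sham was 2.14 (1.74 to 2.56), the 134th of all genes, that of SBP over I/R -1.12 (-1.44 to -0.80) and that of SBP over sham 1.03 (0.56 to 1.504).

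**Figure D2:**
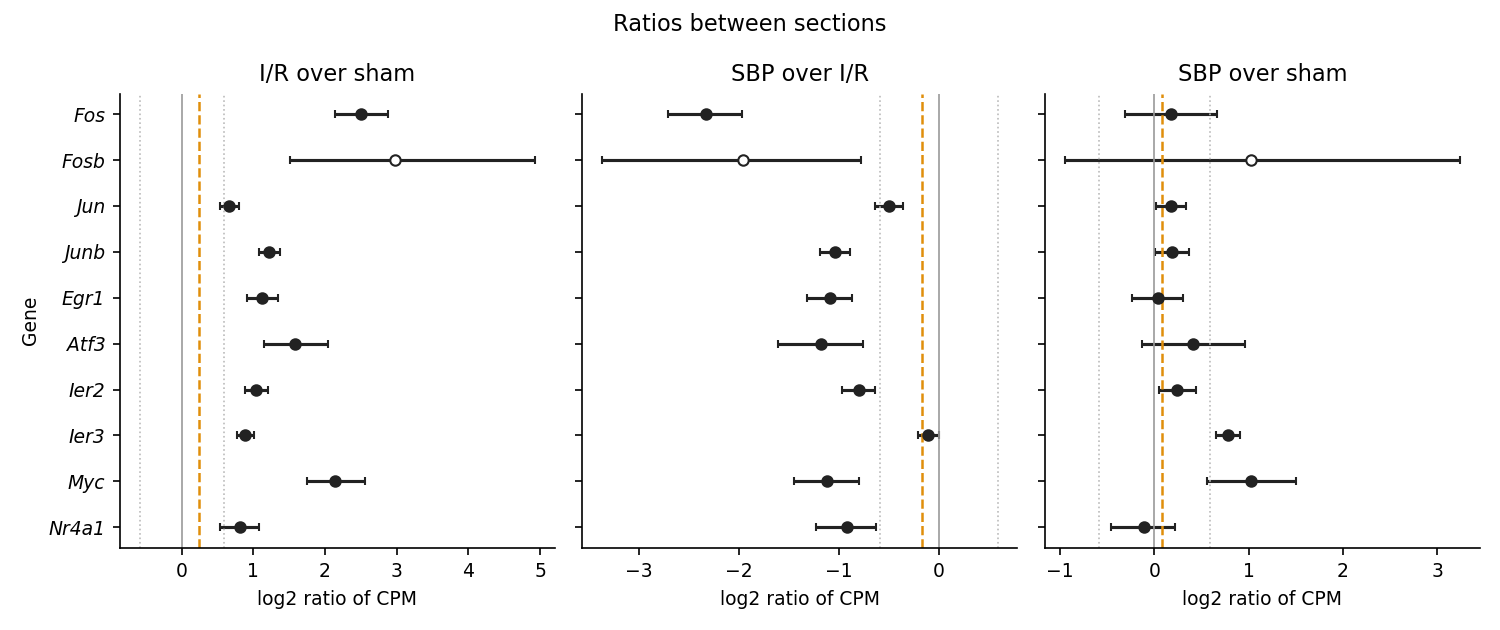
Log2 ratio of CPM between sections for each gene, with exact conditional 95% intervals of counting error. Dashed lines mark the median of all genes tested (0.24, -0.17 and 0.08, from left to right), dotted lines 1.5-fold, and the open circle Fosb, which had too few UMIs to be counted.

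The share of spots with at least 1 UMI was compared at equal depth, with 6500 UMIs drawn from each spot, and the 132 sham, 202 I/R and 213 SBP spots below that depth were not used. The I/R spots rich in neutrophil markers, grouped further below, lay close to that depth, with a median of 6774 UMIs against 15080 in the others. How many of them were left out was not counted, for the shares and for the other results from thinned spots. A Fos UMI was found in 1.33% of sham spots (exact binomial 95% interval 0.89% to 1.92%), 8.99% of I/R spots (7.73% to 10.4%) and 1.66% of SBP spots (1.11% to 2.38%). Unthinned, the shares were 2.69%, 18.0% and 3.32%. The thinned share of Myc was 1.24%, 6.17% and 1.72%, of Junb 9.04%, 22.2% and 10.8%, and of Egr1 5.76%, 12.9% and 6.01%, each in the order sham, I/R, SBP. Ier3 was found in 18.4% of sham spots, 29.1% of I/R spots (27.1% to 31.3%) and 28.7% of SBP spots (26.6% to 30.9%). The I/R interval lay above the sham interval for all 10 genes and above the SBP interval for 9, Ier3 being the exception. Unthinned, the I/R interval was above that of SBP for all 10. How many of all genes separate in this way was not counted, so these counts have no background and are not read as particular to the members. No spot type that should lack these genes is known here, so the part of free RNA in the shares was not measured.

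Counted over genes, spots without a UMI of any of the 10 made up 52.3% of the sham spots, 30.2% after I/R and 43.2% under SBP. Spots with 3 or more of the 10 made up 3.04% of sham, 17.1% of I/R and 4.52% of SBP. Spots with several of the genes were the most frequent in I/R. Among pairs for which at least 10 joint spots would be met if genes were independent, the I/R section had joint spots at up to 2.11 times that number (Fos with Myc, 22 spots against 10.4), with Ier2 and Myc at 1.93 times (43 spots against 22.3) and Junb and Myc at 1.83 times. Egr1 with Nr4a1 was at 0.96 times. Spots of a section share a mouse and a library, and these ratios are given with no test.

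**Figure D3:**
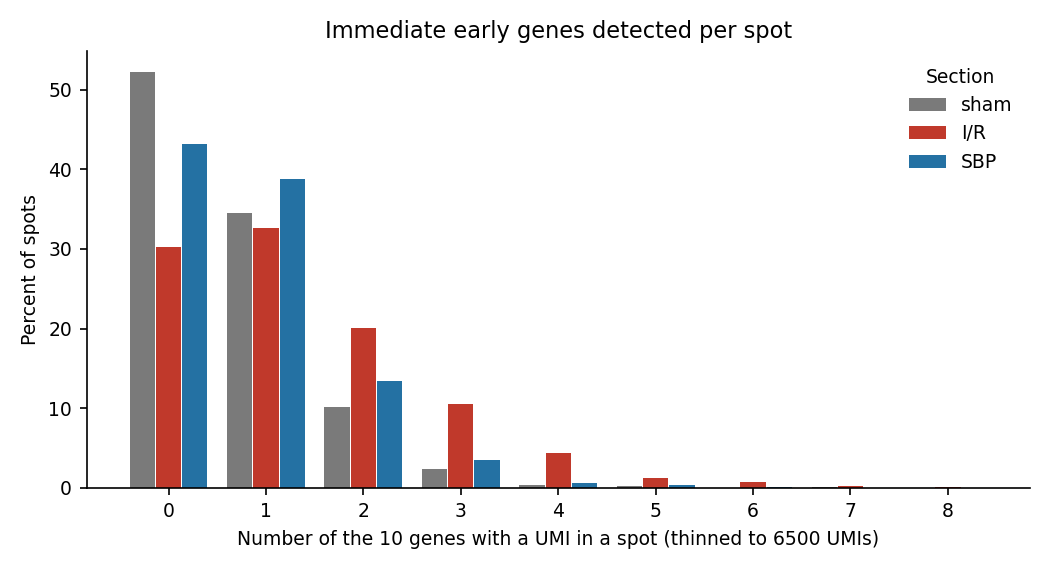
Percent of spots (each thinned to 6500 UMIs) by how many of the 10 genes had a UMI in the spot, for the 3 sections. The I/R bars are the lowest at 0 genes and the highest from 2 genes up to 5.

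Spots were called Ankrd1-high when their Ankrd1 exceeded 27.0 UMIs per 10000, the 95th percentile of sham. By construction 112 sham spots (5.01%) were high, and 479 spots (23.0%) of I/R and 326 (16.6%) of SBP were. High spots were deeper than the others in every section (medians of 14927 against 10502 UMIs in sham, 17348 against 14103 after I/R and 11990 against 10453 under SBP). Their mitochondrial share was lower, at 45.2% against 48.9% in sham, 40.6% against 45.7% after I/R and 43.9% against 46.9% under SBP, and its part in the ratios below was not tested.

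Within I/R the genes parted at this threshold of Ankrd1. With a region set by the injury region genes instead, 9 ratios lay outside their intervals. Myc was at 18.7 CPM in Ankrd1-high and 7.75 in other spots, a log2 ratio of 1.27 (0.95 to 1.60), Atf3 at 10.0 and 5.30, a ratio of 0.92 (0.50 to 1.34), and Ier3 at 88.7 and 51.4, a ratio of 0.79 (0.65 to 0.92). These 3 of 9 were past the fold, against 12.7% of all genes. Fos (16.4 and 16.4 CPM, ratio -0.004) and Ier2 (33.9 and 34.3 CPM, ratio -0.02) were level between the 2 kinds of spots, with intervals of -0.30 to 0.29 and -0.22 to 0.18, and Egr1 was at 18.8 and 22.3 CPM (ratio -0.24, -0.51 to 0.02). Junb, at 61.4 and 42.1 CPM, was higher in the high spots by a ratio of 0.55 that is short of the fold. In SBP 3 of 9 were past the fold, against 14.0% of all genes: Myc (12.0 and 3.39 CPM, ratio 1.82, 1.24 to 2.40), Atf3 (1.38, 0.57 to 2.15, from 23 UMIs in high spots) and Junb (0.67, 0.37 to 0.96). By this ratio Myc was 11th of 10468 genes in SBP and 87th of 11407 in I/R. In sham 6 of 9 were past the fold, against 21.1% of all genes, from few UMIs: Myc (ratio 1.91, 14 UMIs in high spots), Junb (1.82, 111 UMIs), Nr4a1 (1.70, 34), Atf3 (1.66, 11), Fos (1.58, 14) and Ier3 (0.87, 106). With the 1% of spots richest in each gene removed, 3 genes were past the fold in sham. Fos, Atf3 and Myc then had fewer than 50 UMIs and were no longer counted. Those spots had held 49.3%, 58.2% and 44.3% of their sham UMIs. The ratios of the 9 genes stayed within their intervals, and the share of all genes was not computed for this setting.

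Cut more finely at the sham percentiles of Ankrd1, the I/R levels of the genes named next were highest in the top bin or in the one before it. Fos was higher bin by bin, from 9.92 CPM in the spots lowest in Ankrd1 to 23.8 between the 90th and 95th percentiles, and was at 16.4 above it (13.7 to 19.4, against 18.8 to 29.7 in the bin before). Ier2 went from 27.1 to 46.9 (39.8 to 55.0) and then 33.9 CPM (30.0 to 38.1). Egr1 went from 19.8 to 25.3 (20.1 to 31.4) and then 18.8 (16.0 to 22.1). Myc (1.34 to 18.7 CPM), Atf3 (2.15 to 10.0) and Ier3 (34.3 to 88.7) were instead highest in the top bin. Between the top bin and the one before it, the intervals of Ier2 were apart. Those of Fos, Egr1, Myc, Atf3 and Ier3 overlapped, so these genes are not sorted into kinds by where they were highest. Ier3 differed between I/R and SBP by bin: in the lowest bin 34.3 CPM was measured after I/R (28.6 to 40.8) and 44.8 under SBP (38.5 to 51.9), and in the top bin 88.7 (82.4 to 95.4) and 70.7 (62.6 to 79.5).

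**Figure D4:**
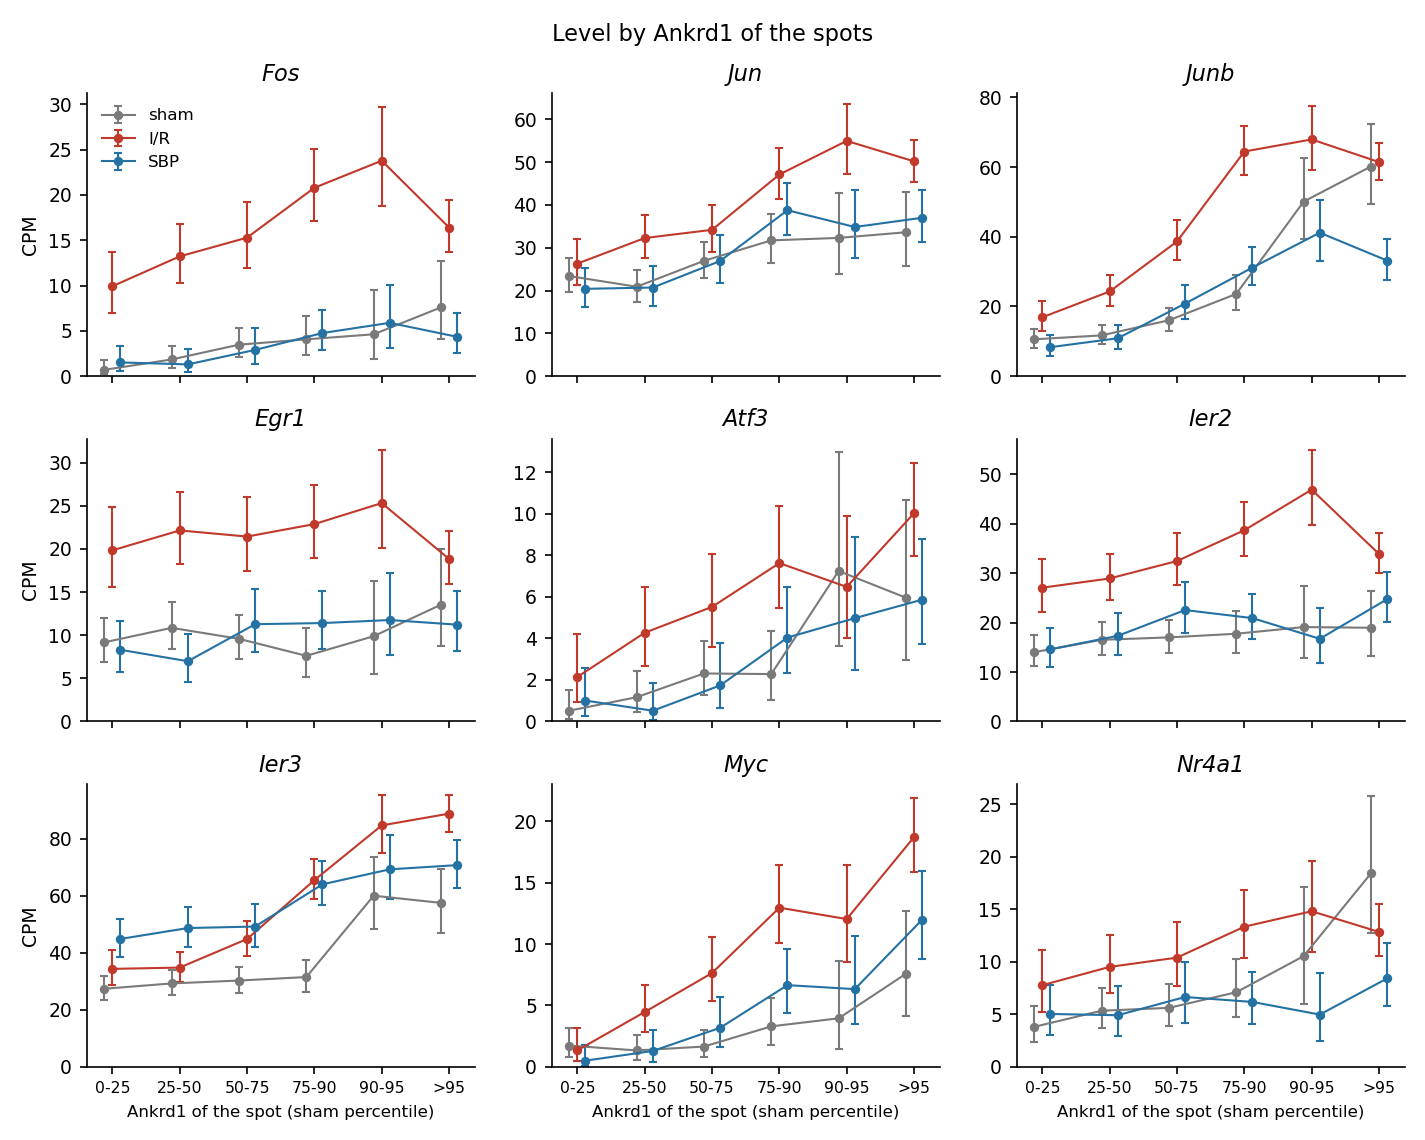
Level of 9 genes (CPM, axes from 0) in spots binned by Ankrd1 at percentiles of the sham section, with exact Poisson 95% intervals. In I/R, Fos and Ier2 peak in the bin from the 90th to the 95th percentile, while Myc, Atf3 and Ier3 are highest in the top bin. Between these bins the I/R intervals are apart for Ier2 and overlap for Fos, Myc, Atf3 and Ier3.

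The differences between sections were found outside the Ankrd1-high spots too, a group that reaches up to the sham 95th percentile of Ankrd1. This group is not spared tissue. Of 782 I/R spots above the sham 95th percentile of the injury region genes, 42.2% were Ankrd1-high, and the others lie in it. In spots that were not Ankrd1-high, all 9 were past the fold and higher in I/R over sham, against 18.3% of all genes, led by Fos (16.4 against 2.54 CPM, log2 ratio 2.70, 2.30 to 3.12) and Myc (1.94, 1.47 to 2.44). In the same spots 7 of 9 were past the fold and lower in SBP over I/R, against 11.5% of all genes, with Fos at -2.43 (-2.87 to -2.02) and Egr1 at -1.19 (-1.45 to -0.93), whereas Ier3 was at 0.07 (-0.05 to 0.20). Within Ankrd1-high spots 4 of 9 were past the fold and higher in I/R over sham (Fos, Ier2, Ier3 and Myc), against 11.3% of all genes, and Junb was level at 61.4 and 60.2 CPM. There 6 of 9 were past the fold and lower in SBP over I/R, against 9.69% of all genes, with Fos at -1.92 (-2.74 to -1.19) and Myc at -0.64 (-1.15 to -0.16). Of 7 with enough UMIs, Junb (33.2 against 60.2 CPM, ratio -0.86, -1.24 to -0.48) and Nr4a1 (8.42 against 18.4 CPM, ratio -1.13, -1.87 to -0.40) were past the fold and lower in SBP than in sham, against 6.12% of all genes. The sham Ankrd1-high spots were themselves rich in injury region genes, at 1299 CPM against 387 in the other sham spots. Neutrophil markers were at 58.5 against 24.7 CPM there. Comparisons within Ankrd1-high spots are thus not made against sham spots low in these genes.

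Spots were also ranked by the markers of each cell kind, with the top 10% per UMI called rich in them. This grouping and the one after it were added once the data had been seen, and the background is given each time, since in some of these groupings of I/R spots most genes were higher. In the neutrophil-rich spots, 6 of 9 genes were past the fold and higher in sham, 8 of 9 after I/R and 8 of 9 under SBP, against 20.1%, 58.7% and 32.9% of all genes. In sham only 684 UMIs of the 4 neutrophil markers were counted, and 1958 of the 2234 spots had none. Most sham spots with any such UMI were therefore among its 224 rich spots, which are not like the I/R spots of the same name. Myc showed the steepest gradient in sham, at 9.48 against 1.64 CPM (log2 ratio 2.53, 1.73 to 3.31), and in I/R, at 40.7 against 8.85 (2.20, 1.804 to 2.59). In SBP, Atf3 was at 12.5 against 2.10 CPM (2.58, 1.75 to 3.36) and Myc at 20.9 against 3.61 (2.53, 1.91 to 3.14). Nr4a1 was the gene not counted in I/R, where its ratio of 0.25 (-0.42 to 0.84) was short of the fold, and in SBP, where its ratio of 0.82 had an interval across 0 (-0.01 to 1.56). In macrophage-rich spots 6, 9 and 5 of the 9 were past the fold and higher in sham, I/R and SBP, against 30.0%, 58.9% and 27.5% of all genes, with Atf3 at 30.9 against 4.73 CPM in I/R. The I/R spots rich in endothelial markers had 9 of 9 past the fold and higher, against 55.3% of all genes, and those rich in smooth muscle markers 8 of 9, against 43.5%. In cardiomyocyte-rich spots 1 of 9 genes (Junb) was past the fold and lower in sham, against 4.68% of all genes. In I/R 7 of 9 were, against 24.7%, and in SBP 2 of 9 (Junb and Myc), against 5.41%. Egr1 stayed level there in I/R, at 22.7 against 21.2 CPM (0.10, -0.30 to 0.48). Myc was at 2.19 against 11.6 CPM, from 6 UMIs in the rich spots. The I/R spots rich in neutrophil markers were also shallow (median 6774 against 15080 UMIs) and poor in mitochondrial UMIs (20.4% against 45.8%). The same held for I/R spots rich in macrophage (8342 against 15007 UMIs, 20.4% against 46.2%) and endothelial markers (8720 against 15017, 25.3% against 45.8%). Those rich in smooth muscle markers were at 11183 against 14811 UMIs and 30.9% against 45.5%. Markers, depth and RNA makeup thus moved together in these groupings, and their part in these ratios was not tested.

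**Figure D5:**
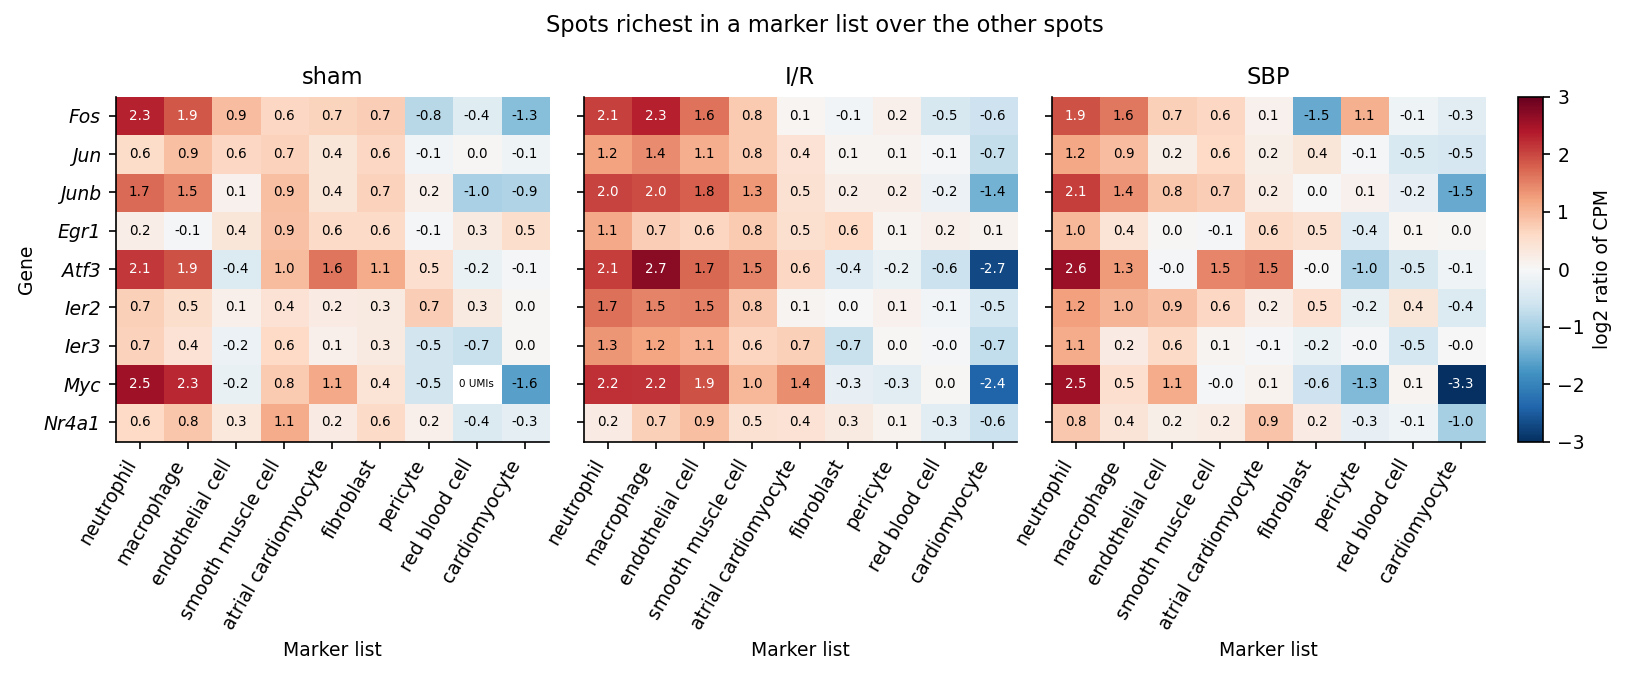
Log2 ratio of CPM for 9 genes in the 10% of spots richest in the markers of a cell kind over the other spots of the same section (red higher, blue lower). In I/R the neutrophil, macrophage, endothelial, smooth muscle and atrial columns are above 0 for all 9 genes. The median of all genes is above 0 there too, from 0.25 (atrial) to 0.89 (neutrophil). The atrial column has intervals across 0 for Fos, Ier2 and Nr4a1. In it 3 of 9 genes were past the fold and higher, against 13.6% of all genes. Of the atrial markers only Nppa and Myl4 had enough UMIs to be compared between sections. The I/R cardiomyocyte column is at -2.70 for Atf3 (-4.99 to -1.13, 3 UMIs in rich spots) and -2.40 for Myc (-3.85 to -1.26, 6 UMIs).

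Neutrophil markers, like the members, were highest in I/R, but unlike most members they stayed well above sham in SBP (115 against 27.2 CPM). The sections were therefore also compared over spots without any UMI of the 4 markers. These were 1958 spots (87.6%) of sham, 1012 (48.6%) of I/R and 1430 (73.0%) of SBP. Their median depths were 10527.5, 14777.5 and 10590 UMIs in that order. The rule was thus stricter in the deeper I/R spots, and it left unlike parts of each section. The part of this in the ratios was not tested. There 6 of 9 genes were past the fold and higher in I/R over sham, against 2.59% of all genes, with a median log2 ratio of 0.63 for the 9 and -0.04 for all genes. Fos was at 1.92 (1.43 to 2.44), Egr1 at 0.996 (0.73 to 1.26), Myc at 0.78 (0.12 to 1.45), Nr4a1 at 0.66 (0.31 to 1.01), Junb at 0.63 (0.41 to 0.85) and Ier2 at 0.60 (0.38 to 0.82). Jun, Ier3 and Atf3 were at 0.22 to 0.26 and no longer past it. In SBP over I/R, 4 of 9 were past the fold and lower, against 1.46% of all genes: Fos (-1.74, -2.30 to -1.21), Egr1 (-1.02, -1.31 to -0.72), Nr4a1 (-0.84, -1.25 to -0.45) and Junb (-0.68, -0.93 to -0.44). Myc (0.10, -0.51 to 0.72) and Atf3 (0.05, -0.74 to 0.85) were not lower in these spots, and Ier3 was higher in SBP than in I/R (0.45, 0.30 to 0.61). In both comparisons Egr1 and Nr4a1 lay within the interval of their whole-section ratio. Fos, Jun, Junb, Atf3, Ier2, Ier3 and Myc lay outside theirs in both, with Fos nearer to 0 but past the fold.

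Other genes of the early response were taken from lists by role, and their counts read against the same 22.7% higher and 13.1% lower of all genes. Of the 9 other AP-1 subunits, 7 were past the fold and higher in I/R over sham (median log2 ratio 0.81) and 5 past it and lower in SBP over I/R (median -0.67). Fosl1, a FOS relative without the strong activation domain, went from 0.52 to 4.56 CPM (ratio 3.14, 2.32 to 4.09) and was at 0.74 CPM in SBP (-2.63), and Batf was at 1.72 and -0.83. Jund, the JUN protein made constantly, was at 91.5, 100.8 and 84.4 CPM in sham, I/R and SBP (ratios 0.14 and -0.26), Mafk was at 0.42 in I/R over sham and Batf3 at -0.31 in SBP over I/R. Among 5 tested EGR and NR4A relatives and NAB corepressors (of 7), 3 were higher in I/R and 2 lower in SBP. Egr2 was at 1.63 and -1.26, Egr3 at 1.38 and -0.07, the corepressor gene Nab2 at -0.61 in SBP over I/R, Nab1 at -0.06 and 0.10, and Nr4a3 at 0.41 in I/R over sham.

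Of 14 KLF, C/EBP and other early factors, 5 were past the fold and higher in I/R and 1 lower in SBP, with Cebpb at 0.96, Nfil3 at 0.75, Klf4 at -0.20 and Sox9 at -0.32 in I/R over sham. In SBP over I/R, Klf10 was at -0.66, Id1 at -0.54, Klf2 at -0.002 and Bhlhe40 at 0.03. Of 17 tested feedback genes (of 19), 7 were higher in I/R and 7 lower in SBP, with medians of 0.47 and -0.54. Socs3, an inhibitor of cytokine signalling, was at 1.74 and -0.87, Tnfaip3 at 1.12 in I/R over sham, Errfi1, an inhibitor of EGF receptors, at -0.98 in SBP over I/R, and Spry2 at 0.23 and 0.04, with Spry1 at 0.30 in I/R over sham and Spry4 at -0.19 in SBP over I/R.

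Of 17 tested early genes with other products (of 18), 9 were past the fold and higher and 1 lower in I/R over sham, and 7 were lower in SBP over I/R. Ptgs2, the inducible cyclooxygenase, was at 0.44, 4.76 and 1.48 CPM in sham, I/R and SBP (ratio of I/R over sham 3.44, 2.56 to 4.48), Il6 at 3.05 and -2.10, and the matricellular gene Ccn1 at 14.4, 46.0 and 13.8 CPM (SBP over I/R -1.74, -1.93 to -1.56). Gadd45a was the gene lower in I/R (-0.78, with 0.24 in SBP over I/R), and Homer1 was at -0.21 and 0.34. Of 19 upstream factors and kinases, 4 were higher in I/R (median 0.31) and 5 lower in SBP (median -0.23). Rps6ka1 was at 1.40 and Mapk7 at 1.08 in I/R over sham, and Mapk8 at -0.16 and Mapk14 at -0.04. The serum response factor gene Srf was at 10.2, 15.9 and 7.77 CPM (SBP over I/R -1.04) and its coactivator Mrtfa at -0.97, against 0.07 for Mrtfb and 0.36 for Elk1.

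MYC partners and antagonists were mostly level, with 2 of 9 tested (of 10) past the fold and higher in I/R over sham and 1 lower in SBP over I/R. Mxd1 and Mxd3, antagonists that compete for MAX, were at 1.95 and 1.36 in I/R over sham and Mxd3 at -2.89 in SBP over I/R (11 UMIs), with Mlx at -0.40, Mxi1 at 0.16 and Mxd4 at 0.27. In I/R over sham, Mycn was at -0.52 and Mxd4 at -0.24. All 12 genes of a list of known MYC targets, most of them in ribosome making and some, such as Srm and Cad, in polyamine and pyrimidine synthesis, were past the fold and higher in I/R over sham (median 0.91), from Rrp9 at 0.62 and Nolc1 at 0.69 to Npm1 at 1.31 and Srm at 1.65. In SBP over I/R, 4 of the 12 were past the fold and lower (median -0.55), led by Srm at -1.06 and Cad at -0.84, while Rrp9 was at -0.33 and Ncl at -0.27. The 10 injury region genes were all past the fold and higher in I/R over sham (median 2.06, from Anxa1 at 1.003 and Anxa2 at 1.41 to Tgfbi at 2.42 and Tnc at 3.01) and all lower in SBP over I/R (median -1.09, from Timp1 at -0.81 and Anxa2 at -0.85 to Spp1 at -1.63 and Tnc at -1.72). They were chosen as injury genes with results of these sections known.

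The genes whose UMIs over thinned spots went most closely with the summed UMIs of the 10 were, in order of the lowest of the 3 within-section Pearson coefficients among 3811 genes, Actb, Spp1, Timp1, Ccl7, Rplp1, Cxcl5, Fn1, Ccl2 and Actg1. Actb had coefficients of 0.25 in sham, 0.53 after I/R and 0.28 under SBP over 2102, 1880 and 1747 spots, and Actg1 0.19, 0.50 and 0.25. Spots share library and tissue, so these are descriptions, and the low values in sham and SBP are weak. Actb was also abundant, at 1185 to 2422 CPM. The draw to equal depth included mitochondrial UMIs, whose share differed between spots. Abundance and this share can both raise such coefficients, and their part was not tested. The spots with the highest summed members (118 in sham, 130 of the I/R and 157 of the SBP spots, at most 10% of each section) held more neutrophil marker UMIs in each section, by log2 ratios of 2.63 in sham, 2.62 after I/R and 2.64 under SBP, and more smooth muscle marker UMIs, by 1.01, 1.59 and 1.73. Macrophage markers were at 0.85, 1.73 and 0.48 there, and cardiomyocyte markers at -0.28, -1.16 and -0.25. Ankrd1-high spots made up 16.9% of these spots and 4.49% of the rest in sham, 30.8% and 23.3% after I/R, and 24.2% and 16.2% under SBP.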

How the data were processed

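The values used are raw UMI counts that the authors deposited for each gene in each spot over tissue, from 1 Visium section per condition (sham, I/R, SBP). The submitters' notes name Space Ranger 1.3.0 and mm10, whereas the study's methods name another version and a human genome, and the gene identifiers are those of mouse (32158 of 32285 found in GENCODE M21, GRCm38). Spots under 200 detected genes were left out (3, 1 and 2). The sections share 1093 barcodes, which Visium slides reuse.

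UMIs were summed over spots and divided by all UMIs (CPM). Intervals at 95% were exact Poisson for UMIs, exact binomial (Clopper-Pearson) for shares and conditional binomial for ratios. No condition has a second section, so no p-value is given. A ratio was called at 1.5-fold with an interval without 0, for genes with at least 50 UMIs. Spots were thinned to 6500 UMIs by a seeded draw for shares. The genes named are the 10 members, the 2 highest and 2 lowest of each list by role in I/R over sham and in SBP over I/R, and the 10 genes most like the summed members, ranked among genes with at least 200 thinned UMIs, of which 1 is not reported here. The members and lists were chosen with earlier results of these data known. No clustering, deconvolution or doublet call was run, and spot positions were not used here. The ratios were tried on simulated Poisson counts of whole sections, which is the error that their intervals assume. The simulation held no spread between spots or mice and says nothing of it. Python 3.11.15, numpy 2.4.6, scipy 1.17.1, pandas 2.3.3, matplotlib 3.10.9 and, for TMM factors only, edgeR 4.0.16 were used. Spots rich in markers and spots without neutrophil markers were defined after seeing the data. The alternatives tried were other denominators, scalings, spot filters, weights, UMI minimums, folds, definitions of the Ankrd1 region and thinning depths.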

Additional observations from a re-analysis of the deposited data

Results flagged for a closer look

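Junb went in opposite directions in the same comparison of SBP with sham in 2 kinds of spots. Its log2 ratio was -0.86 within Ankrd1-high spots (95% interval -1.24 to -0.48) and 0.29 within the other spots (0.08 to 0.50), and the levels in high spots rest on 130 UMIs in SBP and 111 in sham. The difference between the ratios was not tested, since each condition has 1 section. The sham Ankrd1-high spots were also richer in injury region genes than the other sham spots.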

How the results depend on the processing

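No paired analysis was possible because there was 1 section of each condition, and no replicate could be left out. Of 753 recomputed log2 ratios of single genes, 643 stayed within the interval of the reported value. These 643 include every ratio of the settings that change only the UMI minimum or the fold. Such settings leave each ratio as it was, so their agreement was fixed in advance. Among the 753 ratios, 32 had the other sign, 3 of them ratios that had been past the fold (Myc in 2 settings and Atf3 in 1). All scalings kept the direction of every called ratio between whole sections, and TMM and median-of-ratios factors, which move all log2 ratios of I/R over sham by -0.23 and -0.24, left 7 of 9 genes past the fold there and 7 in SBP over I/R. At 2-fold, 6 and 5 were past it. In SBP over sham 1 gene was past the fold with at least 200 UMIs and 1 at 2-fold. Within sham, 3 were past the fold without the 1% of spots richest in the gene, where Fos, Atf3 and Myc fell below 50 UMIs. With at least 200 UMIs, 2 were past it within sham. Within I/R, Otsu's threshold for Ankrd1 gave 6, a region set by the injury genes 8, and 2-fold 1. Within SBP these regions gave 5 and 9, and at least 200 UMIs gave 1. Otsu's threshold also gave 8 within high spots for I/R over sham. Outside the injury gene region, 5 were past it in I/R over sham and 3 in SBP over I/R, where Myc was at 0.22. Over spots with no neutrophil marker UMI, an alternative chosen after seeing the data, 4 genes were past the fold in SBP over I/R, with Myc at 0.10 and Atf3 at 0.0496. The equal-weight interval is that of the summed UMIs shifted to the new ratio. Apart from the spots with no neutrophil marker UMI, the share of all genes past the fold was not computed for these alternatives. Their counts of members therefore have no background and are not results about the members. The cause of these changes was not tested. Fosb is limited by its few UMIs, and the Ankrd1-high part of sham by its 112 spots.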
